A study of Glycine max with 8 samples.

Results

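The 100 soybean probes that shone brightest on arrays of dry seed were followed through the first 16 h of imbibition, the uptake of water that precedes germination. They were chosen from 42748 soybean probes as those with the highest mean level over the 2 dry-seed arrays, where the level is the log2 of a spot's processed signal minus the 75th percentile of all soybean probes on the same array. Because the dry-seed arrays chose them, their dry-seed levels, and every difference from dry seed, are given as description without a test. The 8 h and 16 h arrays had no part in the choice, so only 16 h against 8 h was tested.

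Total RNA came from whole seeds of Glycine max, cultivar Suzumaru, a soybean variety, and was hybridised to 1-colour Agilent arrays. The labels give no treatment beyond a soak in dilute hypochlorous acid and a wash, after which seeds were imbibed on wet cotton in the dark. The stages were dry seed at 0 h (2 arrays), 8 h of imbibition (3 arrays) and 16 h of imbibition (3 arrays), and a further dry-seed sample was not analysed here. Seeds entered the 8 h stage only above a set weight of water taken up, and the 16 h stage only when germinated or above a larger one. Per the labels, the seeds of a stage were gathered as 1 lot and split in 3 before milling, so the spread between arrays of a stage, and every p-value below, is that of portions of 1 lot and may be technical.

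Dry seeds carry messenger RNAs made while the seed matured on the mother plant, known as stored or long-lived mRNAs. When water enters, protein synthesis resumes on such stored templates, many of them are broken down over the following hours, and newly transcribed mRNAs take their place. In maturing legume seeds the most abundant messages are typically those for storage proteins and for proteins that protect the drying cell. The files and the reference table used here give none of the 100 probes a gene or product name, so the probes are called by their array names, no sequence is printed, and tissue markers could not be looked up. A probe's brightness also depends on how well it hybridises, so ranks below are ranks of brightness and not of transcript copies.

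All 100 members were well above background on all 8 arrays, none of their spots was flagged as an outlier, and all passed the filter on dim probes. They represent 100 distinct accessions, but none was matched to a gene, so several may report the same transcript. Of the members, 56 carry names of the clone series GMFL01, as do 58.9% of the next 900 probes by dry-seed rank and 21.9% of all soybean probes, and the other 44 carry sequence accessions. The members just inside the limit, ranked 96 to 100, were GMFL01-19-L23-R_520, AW350757.1_662, BM107992.1_140, GMFL01-19-P18-R_456 and GMFL01-14-L18-F_454, with mean dry-seed levels between 7.52 and 7.62 log2. The 5 probes just outside lay between 7.44 and 7.51 log2, led by GMFL01-16-I18-R_50, so the limit falls within a continuous range. Choosing on 1 dry-seed array alone gave lists that shared 96 (replicate 1) or 98 (replicate 2) probes with the members, and 95 of either list were among the 100 brightest of the other dry-seed array.

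The members held a large share of the array's signal in dry seed, nearly as much at 8 h, and much less at 16 h. Their share of the summed processed signal of all soybean probes was 37.2% and 37.3% in dry seed, 35.4%, 32.4% and 36.0% at 8 h, and 16.9%, 17.4% and 18.8% at 16 h. Every 16 h array lay below every 8 h array. The mean share was 17.7% ± 1.02 at 16 h against 34.6% ± 1.93 at 8 h (SD, n = 3 each), a difference of -16.92 percentage points. A 2-sided exact permutation test over arrays gave p = 0.1, the smallest that 3 against 3 arrays allow, and 0.1 after Benjamini-Hochberg adjustment over the 3 per-array measures so tested. The difference was -18.31 points within slide 1 and -15.37 points within slide 2, the 2 slides each holding all 3 stages. Under quantile normalization, which gives every array the same distribution of signals, it was -5.35 points.

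**Figure D1:**
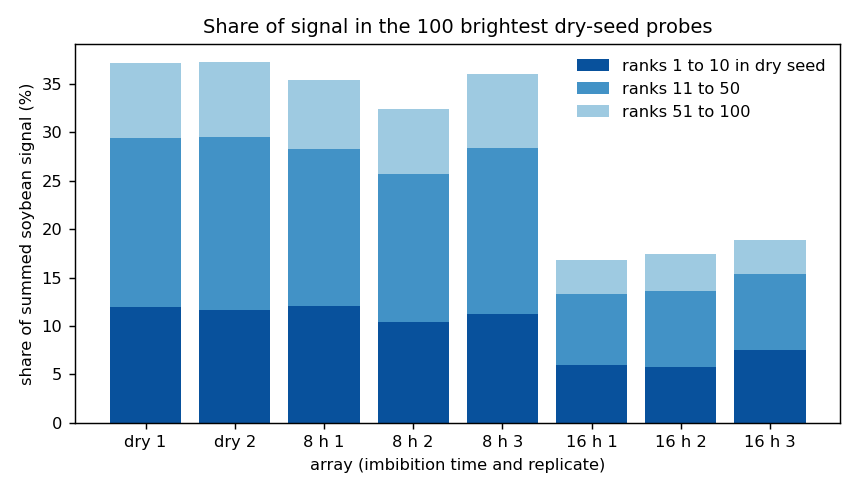
Share of the summed processed signal (%) held by the 100 members on each of the 8 arrays, dry seed to the left, stacked by dry-seed rank. The stacks reach 37.2% and 37.3% in dry seed, 32.4% to 36.0% at 8 h and 16.9% to 18.8% at 16 h.

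The loss of share was seen in each group of ranks, while shares of single members were not computed. Ranks 1 to 10 held 11.98% and 11.68% in dry seed, 12.12%, 10.42% and 11.25% at 8 h, and 5.94%, 5.80% and 7.55% at 16 h. Ranks 11 to 50 held a mean of 17.7% in dry seed, 16.2% at 8 h and 7.64% at 16 h, and ranks 51 to 100 held 7.71%, 7.19% and 3.63% at the same stages. The next 900 probes of dry seed, down to rank 1000, held 29.2% in dry seed, 28.6% at 8 h and 25.3% at 16 h. The probes from there down to rank 10000 held a mean of 29.8% in dry seed, 31.8% at 8 h and 43.4% at 16 h. The 16 h seed was also less dominated by any few probes: the 100 brightest of each array, whichever they were, held 37.2% and 37.3% in dry seed, 32.7% to 36.2% at 8 h and 20.6% to 23.4% at 16 h.

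In rank, most members kept their places at 8 h and about 4 in 10 left the top by 16 h. By stage means 92 of them were among the 100 brightest probes at 8 h and 60 at 16 h. Counted per array, 96 and 98 were among the 100 brightest in dry seed, 89, 90 and 92 at 8 h, and 58, 63 and 53 at 16 h. By stage means the lowest-ranked member stood at 114 at 8 h and at 1503 at 16 h, and 96 of the 100 were still among the 1000 brightest at 16 h. On single arrays the lowest member rank was 511, 133 and 118 at 8 h, and 2495, 1044 and 2239 at 16 h, where 92, 99 and 94 members were among the 1000 brightest. The members' median rank was 50.5 at 8 h and 70 at 16 h.

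By the stage means, each member stayed within 2-fold of its dry-seed level at 8 h, although single 8 h arrays of some members lay farther away. The median difference from dry seed was -0.36 log2 (1.29-fold lower), with a range of -0.92 to 0.66, and 96 of 100 lay below dry seed. No member differed by 2-fold in either direction, where 1.1% of all 28792 tested probes were at least 2-fold lower and 5.87% at least 2-fold higher. By 16 h the median difference from dry seed was -2.44 log2 (5.42-fold lower, range -4.72 to -0.62), and 96 members were at least 2-fold lower, against 21.7% of tested probes. Since high dry-seed values chose the members, differences from dry seed are biased downward. Members chosen on dry-seed replicate 1 and read against replicate 2 had a median of -2.46 log2 at 16 h, and those chosen on replicate 2 and read against replicate 1 had -2.28 log2. Relative to spike-in RNA, added to each sample as a control, the members' median difference from dry seed was -0.34 log2 at 8 h, with 0 members past 2-fold either way (1.0% of tested probes lower, 6.18% higher). On that scale it was -0.99 log2 at 16 h, with 50 members at least 2-fold lower and 0 higher, where 2.85% and 62.4% of tested probes were. In whole seeds, fewer cells of a type and less RNA per cell cannot be told apart.

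Between 8 h and 16 h all 100 members fell relative to the array's 75th percentile, the scale of all values in this paragraph. With limma's moderated test fitted to all 28792 probes that exceeded background clearly on all arrays of 1 or more stages, and Benjamini-Hochberg adjustment over all of them, 100 of 100 members were called lower at 16 h at an adjusted p under 0.05, and 0 higher (0 also at an unadjusted p under 0.05). Among all tested probes 31.0% were called lower and 29.2% higher. The members' median difference was -2.0 log2 (4.01-fold lower, range -3.89 to -0.77) beside 0.00 for all tested probes. Of the members, 94 were at least 2-fold lower, as were 16.1% of tested probes, and for 99 every 16 h array lay below every 8 h array, as for 35.8% of tested probes. The highest adjusted p among the members was 0.0341. The next 900 probes had a median of -1.09 log2, with 760 of 900 called lower and 14 higher.

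The size of that fall was similar on the 2 slides. Fitted alone, each slide has 1 array in an arm and 1 residual degree of freedom, the lone array being assumed to vary like the others, so the counts of calls from such fits say nothing about whether the slides differ. Slide 1, with 1 array at 8 h and 2 at 16 h, gave a median of -1.87 log2 and 98 members called lower (26.9% of tested probes). Slide 2, with 2 arrays at 8 h and 1 at 16 h, gave a median of -2.02 log2 and 100 members lower in value, but none called (0.0% of tested probes called lower, lowest adjusted p of a member 0.143, 82 members lower and 0 higher at an unadjusted p under 0.05). With slide as a block in the fit, 99 members were called lower. Calls depended on normalization, with 57 members lower and 0 higher after normexp background correction (18.9% of tested probes lower), and 50 lower and 5 higher under quantile normalization (30.0% lower). The percentages of tested probes called with the slide block, and called higher after normexp or quantile normalization, were not tallied.

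**Figure D2:**
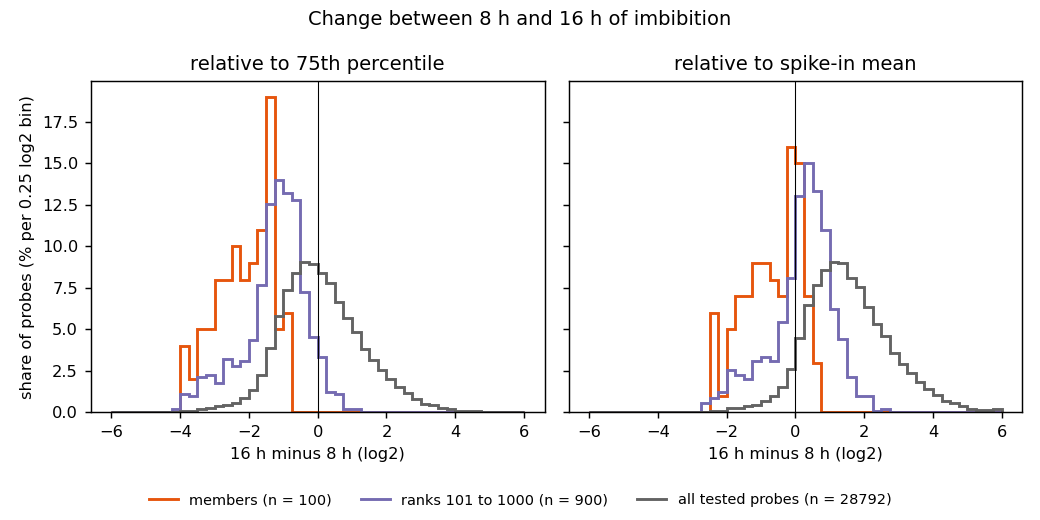
Distribution of the log2 difference between 16 h and 8 h (x axis) for the 100 members, for the next 900 probes by dry-seed rank and for all 28792 tested probes, as a share of probes per bin (y axis), relative to the array's 75th percentile on the left and to the spike-in mean on the right. The members' median is -2.0 log2 on the left and -0.58 on the right, beside 0.00 and 1.43 for all tested probes.

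Measured against RNA added as a control, the picture was different. Agilent arrays carry E1A probes that detect an adenoviral RNA added to each sample as a spike-in, and 7 of the 10 E1A probes, each with 32 spots, could be used, being detected and unsaturated throughout. Neither the amount added per sample nor the step of addition is given in the sources used here. Comparisons on this scale assume the same amount of spike-in and of labelled seed RNA in every sample. They do not give amounts per seed. Relative to the mean log2 signal of these 7 probes, the array's 75th percentile was -5.50 and -5.53 log2 in dry seed, -5.64, -5.17 and -5.67 at 8 h, and -4.15, -3.76 and -4.30 at 16 h. The change of scale moved the median difference of all tested probes between 16 h and 8 h to 1.43 log2. On this scale 2.41% of tested probes were called lower at 16 h and 76.9% higher.

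Summed over the members, signal relative to the spike-ins was 10.34 and 10.33 log2 in dry seed, 9.93, 10.06 and 10.08 at 8 h, and 9.52, 9.91 and 9.57 at 16 h. Every 16 h array again lay below every 8 h array. The sum averaged 9.67 ± 0.21 log2 at 16 h and 10.02 ± 0.08 log2 at 8 h (SD, n = 3 each), a difference of -0.36 log2 (1.28-fold lower) with p = 0.1 in the exact permutation test. The sum over all other soybean probes averaged 11.89 ± 0.24 log2 at 16 h and 10.94 ± 0.17 log2 at 8 h, 1.92-fold higher at 16 h, also with an exact p = 0.1. Relative to the spike-ins, the lower share combines a 1.28-fold lower member sum with a 1.92-fold higher sum of the rest. Reading these as changes in RNA assumes equal amounts of spike-in and of labelled seed RNA in every sample. Within slide 1 the members' sum differed by -0.21 log2 and within slide 2 by -0.50 log2.

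Against the spike-ins, nearly equal numbers of members were called lower and not called, with 75 of 100 below 0. A member that was not called may still have fallen. Of the 100, 46 were called lower at 16 h than at 8 h, 1 was called higher and 53 were not called. Of all 28792 tested probes, 2.41% were called lower, 76.9% were called higher and 5950 probes were not called. The members' median difference was -0.58 log2 (1.49-fold lower, range -2.47 to 0.65), and 35 were at least 2-fold lower, as were 1.59% of tested probes. Within 0.5 log2 of no difference lay 45 members, and 4326 of the 28792 tested probes. For 46 every 16 h array lay below every 8 h array and for 6 above, as for 2.58% and 80.4% of tested probes. The next 900 probes had a median of 0.33 log2, with 139 of 900 called lower and 315 higher. The 46 lower members had a median rank of 51.5 in dry seed and 213.5 at 16 h, and 12 of them were among the 100 brightest at 16 h. The 53 that were not called had a median rank of 43 at both stages, and 47 of them were among the 100 brightest at 16 h. The calls rest on the same 16 h levels, so the ranks at 16 h largely restate the split and add no support to it.

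Within the slides, whose fits rest on 1 residual degree of freedom each, the counts were as follows. Slide 1 alone gave 26 lower and 2 higher with a median of -0.19 log2, where 1.14% of all tested probes were called lower and their median was 1.62 log2. Slide 2 alone gave 16 lower and 0 higher with a median of -0.90 log2, where 0.733% of all tested probes were called lower and their median was 1.19 log2. At an unadjusted p under 0.05, 27 were lower and 3 higher on slide 1, and 34 lower and 0 higher on slide 2. The 1 member called higher was GMFL01-18-H16-R_538. The count of higher members was 0 without replicate 1 of 8 h or without replicate 1 of 16 h, and 5 without replicate 3 of 16 h. The percentages of all tested probes called higher in these fits, and within the slides, were not tallied. Clone-named members had a median of -0.68 log2 (29 of 56 called lower, 1 higher) and accession-named members -0.10 log2 (17 of 44 called lower), a difference that was not tested. The shares called among all clone-named and all accession-named probes were not computed.

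**Figure D3:**
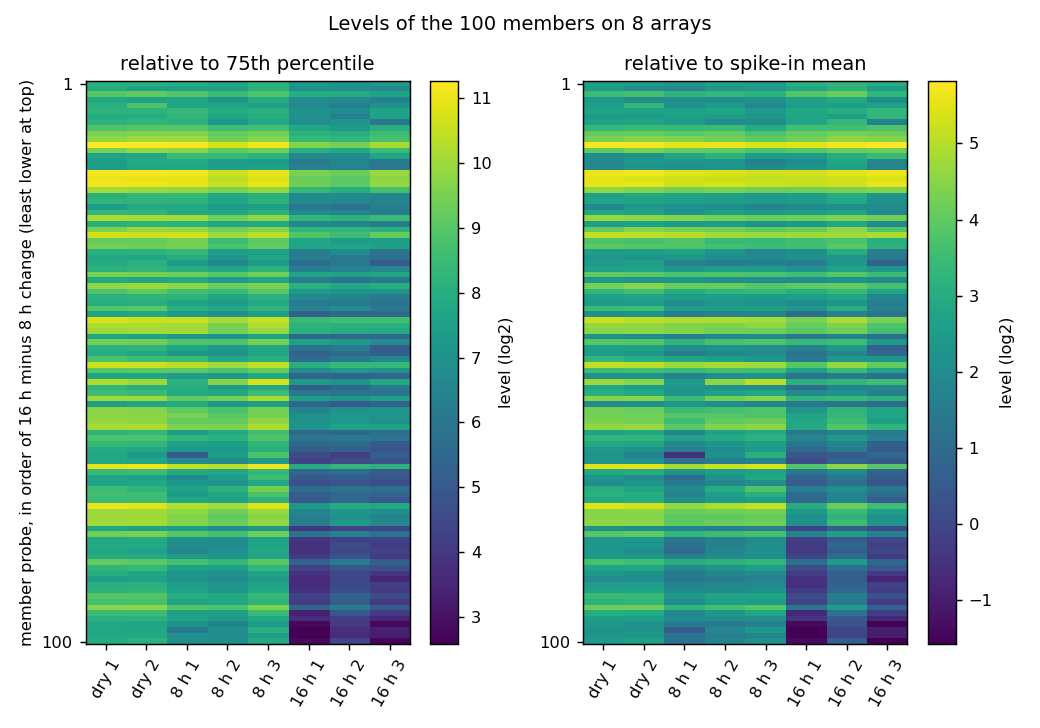
Levels (log2, colour) of the 100 members, 1 row each, on the 8 arrays (columns), relative to the array's 75th percentile on the left and to the spike-in mean on the right, with rows ordered from the least to the most lowered between 8 h and 16 h. On the left all rows darken at 16 h, and on the right mainly the lower part does. On that scale 46 members were called lower.

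Several of the brightest members kept a nearly level signal before scaling. CA851127.1_388, the brightest probe of dry seed, had levels of 11.26 and 11.22 log2 in dry seed, 11.16, 10.74 and 11.08 at 8 h, and 9.62, 9.43 and 10.12 at 16 h. Its difference between 16 h and 8 h was -1.27 ± 0.21 log2 (SE, limma adjusted p = 0.00196), with no overlap between those stages. Its processed signal before any scaling was 512326 and 505538 in dry seed, 484317, 529993 and 480441 at 8 h, and 513756, 516798 and 511806 at 16 h, so the brightest array was 1.10 times the dimmest. Relative to the spike-ins it differed by 0.15 log2 (limma adjusted p = 0.516), and it ranked 1st at every stage by the stage means.

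Several of the other top probes kept a nearly constant distance from it. CO036232.1_335 and CF805841.1_501, ranked 2 and 5 in dry seed, each kept the same log2 distance from it to within 0.15 over the 8 arrays. BE800373.1_348, ranked 3, kept it to within 0.21, and BE661742.1_458, ranked 8, to within 0.42. Over all 4950 pairs of members the median of this range was 1.68 log2. The unscaled signals of these 4 were themselves nearly level, the brightest array being 1.1, 1.09, 1.13 and 1.27 times the dimmest. A nearly constant distance follows from such level signals and does not show a joint change. None of these 4 was called on the spike-in scale, where their differences between 16 h and 8 h were 0.10, 0.08, 0.06 and -0.03 log2 (limma adjusted p between 0.670 and 0.908).

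No spot was saturated: the highest median signal of a soybean probe was 523746 to 573542 over the arrays, below the scanner's stated saturation value of 778375 or 778420. The top of the range was sparsely covered by the spike-ins, since CA851127.1_388 was 0.56 to 0.85 log2 brighter than the brightest of them. Whether the response of these probes flattens below saturation was not tested. Over the whole list 33 members had an unscaled mean signal at 16 h within 20% of that at 8 h, and for 48 the unscaled signal on every 16 h array lay below that on all others. The shares of all tested probes that did so were not computed, so these counts cannot be read as particular to the members.

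**Figure D4:**
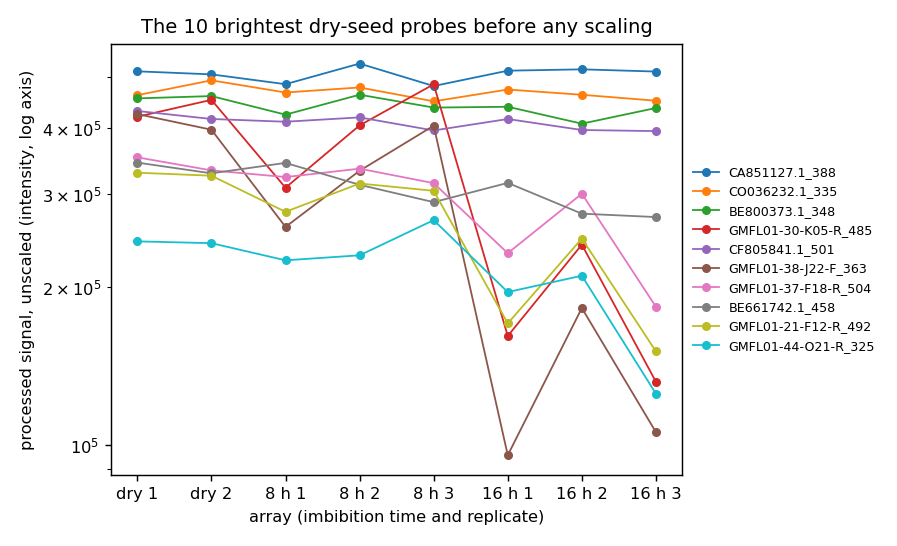
Processed signal before any scaling (intensity, log axis) of the 10 brightest dry-seed probes on the 8 arrays. CA851127.1_388 stays between 480441 and 529993, while GMFL01-30-K05-R_485 and GMFL01-38-J22-F_363 reach 240235 at most at 16 h.

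Of the 10 brightest, 2 stood out by a fall on both scales. GMFL01-30-K05-R_485, ranked 4 in dry seed, had an unscaled signal of 420131 and 452296 in dry seed, 308086, 404523 and 484086 at 8 h, and 161162, 240235 and 131944 at 16 h. It was 5.67-fold lower at 16 h than at 8 h by the 75th percentile (limma adjusted p = 0.000335) and 2.12-fold lower relative to the spike-ins (limma adjusted p = 0.00581), and ranked 14 at 16 h. GMFL01-38-J22-F_363, ranked 6, had 425012 and 396952 in dry seed, 259587, 331771 and 403969 at 8 h, and 95730, 182108 and 105862 at 16 h. It was 6.63-fold lower by the 75th percentile (limma adjusted p = 0.000407) and 2.47-fold lower relative to the spike-ins (limma adjusted p = 0.00389), and ranked 22 at 16 h. In both, the unscaled signal of every 16 h array was below that of every earlier one, and replicate 1 was the lowest of the 8 h arrays. Relative to the spike-ins, GMFL01-30-K05-R_485 differed by -0.68 log2 within slide 1 and -1.44 log2 within slide 2, against -1.08 over all arrays. GMFL01-38-J22-F_363 differed by -1.49 log2 within slide 2, against -1.31 over all arrays. On slide 1 its level on that scale was 4.62 log2 at 8 h, and 3.04 and 4.17 at 16 h.

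The remaining 3 of the 10 lay between these patterns. GMFL01-37-F18-R_504 and GMFL01-44-O21-R_325 each differed by -1.79 log2 on the 75th percentile scale and -0.37 on the spike-in scale, and GMFL01-21-F12-R_492 by -2.0 and -0.58. On the first scale all 3 were called lower, and on the spike-in scale none was (limma adjusted p between 0.0536 and 0.179). Without replicate 2 of 16 h, GMFL01-21-F12-R_492 (-0.80 log2) and GMFL01-37-F18-R_504 (-0.55 log2) were called there too (limma adjusted p = 0.00992 and 0.0383). By the stage means, all of the 10 were still the 10 brightest at 8 h and 7 of them at 16 h. Across the 100 members, the dry-seed level and the difference between 16 h and 8 h had a Pearson r of 0.16 and a Spearman rho of 0.13, a description over probes that share the same arrays.

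The 10 deepest falls lay at dry-seed ranks 26 to 85. CK769021.1_437, ranked 69 in dry seed, had levels of 7.93 and 8.12 log2 in dry seed, 6.87, 6.91 and 7.81 at 8 h, and 2.80, 4.40 and 2.72 at 16 h. Its difference between 16 h and 8 h was -3.89 ± 0.47 log2 (SE, 14.8-fold lower, limma adjusted p = 0.000704) and it was 5.52-fold lower relative to the spike-ins (limma adjusted p = 0.00243) and ranked 1370 at 16 h. GMFL01-05-H24-R_594, ranked 79, had 7.80 and 7.85 log2 in dry seed, 6.93, 6.76 and 7.43 at 8 h, and 2.66, 3.63 and 3.32 at 16 h. It differed by -3.84 ± 0.28 log2 (SE, 14.3-fold lower, limma adjusted p = 0.000329), and at rank 1503 it was the lowest-ranked member at 16 h.

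Both were already lower at 8 h, where all 3 arrays lay below both dry-seed arrays, a difference not tested here. BE658124.1_486, GMFL01-15-O13-R_650, GMFL01-24-P21-R_499, BE661660.1_505, GMFL01-48-F24-R_305, BE823831.1_616, CO985693.1_759 and AW306598.1_310 make up the rest of the 10 largest falls, between -3.82 and -3.34 log2. All 10 were also called lower relative to the spike-ins, by -2.47 to -1.91 log2. The 5 lowest-ranked members at 16 h were the first 5 of these 10, at ranks 874 to 1503. GMFL01-48-F24-R_305 was the brightest of the 10 in dry seed, at rank 26, and stood at rank 144 at 16 h.

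At the other end, 5 members differed least between the stages by the 75th percentile. GMFL01-18-H16-R_538, ranked 65 in dry seed, had levels of 8.10 and 8.15 log2 in dry seed, 7.98, 7.83 and 8.22 at 8 h, and 7.32, 7.04 and 7.34 at 16 h. Its difference between 16 h and 8 h was -0.77 ± 0.16 log2 (SE, limma adjusted p = 0.00474). Its unscaled signal was 57491 and 60233 in dry seed, 53335, 70122 and 66205 at 8 h, and 104289, 98750 and 74806 at 16 h, and relative to the spike-ins it rose by 0.65 log2 (limma adjusted p = 0.0184). That call was lost without replicate 1 of 8 h (0.56 log2, limma adjusted p = 0.0623), without replicate 1 of 16 h (0.65 log2, limma adjusted p = 0.0661). Within the slides the difference was 0.89 log2 (slide 1) and 0.44 log2 (slide 2). It ranked 35 at 16 h.

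GMFL01-45-N21-R_159, CX701576.1_898, CX710486.1_734 and BI970719.1_663 followed, at -0.82, -0.92, -0.98 and -0.98 log2 by the 75th percentile. Relative to the spike-ins they differed by 0.61, 0.50, 0.44 and 0.44 log2 and were not called (limma adjusted p between 0.0721 and 0.160). Without replicate 3 of 16 h the first 3 of these were called higher there, by 0.77, 0.73 and 0.67 log2. Under quantile normalization all 5 of the least lowered members, GMFL01-18-H16-R_538 included, differed by 0.25 to 0.71 log2. Spike-in centring shifts every member's difference by the same 1.42 log2, so the 25 members lowered by less than that on the 75th percentile scale have a positive sign on the other. Under quantile normalization 26 members had a positive sign. The direction of such members is thus set by the scale.

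A single member was above both dry-seed arrays on every 8 h array. This was BI700344.1_436, chosen after its values were seen, with 7.57 and 7.77 log2 in dry seed, 8.45, 8.37 and 8.16 at 8 h, and 6.65, 6.79 and 7.71 at 16 h. Its difference between 16 h and 8 h was -1.28 ± 0.28 log2 by the 75th percentile (SE, limma adjusted p = 0.00586) and 0.14 log2 relative to the spike-ins (limma adjusted p = 0.663). Its level thus peaked at 8 h on the first scale, and on the second it was 0.68 log2 above dry seed at 8 h and 0.83 log2 above it at 16 h.

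The 3 portions of 8 h seed did not give the same values for every member. The median range between arrays of a stage was 0.10 log2 in dry seed, 0.63 at 8 h and 0.52 at 16 h. For 9 members, chosen after their values were seen, the 8 h arrays lay more than 1 log2 apart (1.05 to 3.67), and 8 of the 9 are clone-named. All 9 were lowest on replicate 1 and highest on replicate 3, and on replicate 3 all 9 were above both dry-seed arrays. Of the other 91 members, whose range was 0.22 to 0.96 log2, 84 were lowest on replicate 2 and 52 highest on replicate 3. Among the next 900 probes, 50 (5.56%) had 8 h arrays more than 1 log2 apart, 45 of them highest on replicate 3. These ranges and orders depend on the centring. Against the spike-ins, the 75th percentile was higher on replicate 2 (-5.17 log2) than on replicates 1 and 3 (-5.64 and -5.67). The members' median level on the spike-in scale was 2.43, 2.59 and 2.60 log2 on replicates 1, 2 and 3, so replicate 2 was not the lowest there.

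**Figure D5:**
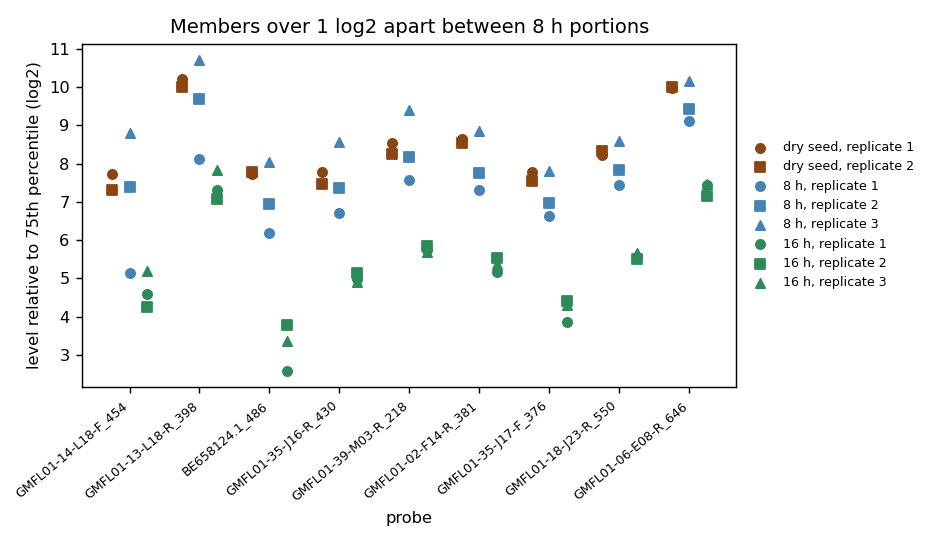
Levels (log2, relative to the array's 75th percentile) of the 9 members whose 8 h arrays lay more than 1 log2 apart, with 1 point per array, coloured by stage and shaped by replicate. In each of the 9 the 8 h point of replicate 1 is the lowest of that stage and that of replicate 3 the highest.

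The widest was GMFL01-14-L18-F_454, the last-ranked member, with 7.74 and 7.30 log2 in dry seed, 5.13, 7.4 and 8.80 at 8 h, and 4.60, 4.24 and 5.20 at 16 h. It is the 1 member whose 16 h and 8 h arrays overlapped, by replicate 3 of 16 h and replicate 1 of 8 h. Its difference of -2.43 ± 0.82 log2 (SE, limma adjusted p = 0.0341) was called, but not with slide as a block (limma adjusted p = 0.0508). Nor was it called without replicate 2 or 3 of 8 h or any 1 of the 16 h arrays (limma adjusted p between 0.0545 and 0.102), and without replicate 3 of 8 h it was -1.58 log2. Relative to the spike-ins it was not called (-1.01 log2, limma adjusted p = 0.246), but was called lower without replicate 1 of 8 h (-2.07 log2). Within slide 1, where that replicate is the only 8 h array, its difference was 0.98 log2.

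GMFL01-13-L18-R_398, ranked 13 in dry seed, had the next widest spread, with a mean of 10.11 log2 in dry seed, and 8.12, 9.69 and 10.72 at 8 h, and 7.30, 7.07 and 7.84 at 16 h. It was called lower by the 75th percentile (-2.10 log2, limma adjusted p = 0.0168) and not relative to the spike-ins (-0.68 log2, limma adjusted p = 0.285). Without replicate 1 of 8 h it was called lower there too (-1.45 log2, limma adjusted p = 0.0027). GMFL01-35-J16-R_430 and GMFL01-39-M03-R_218 shared the pattern closely, their log2 distance varying by 0.15 over the 8 arrays. Of the 9, 7 were called lower on the spike-in scale, though most of these calls did not hold when single arrays were left out. Of the 7 calls, 5 were lost without replicate 3 of 8 h, where GMFL01-35-J16-R_430 differed by -0.69 log2 against -1.11 with all arrays and GMFL01-39-M03-R_218 by -0.77 against -1.19. Likewise 5 were lost without replicate 1 of 16 h and 5 without replicate 3 of 16 h, and 3 without replicate 2 of 8 h and 3 with slide as a block.

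As 40 members left the 100 brightest by 16 h, 40 other probes took their places. Of these, 34 had stood among the 1000 brightest of dry seed, 6 below rank 1000, and 2 of those below rank 10000, while 39 were among the 1000 brightest by 8 h. The brightest of them, CD417265.1_364, ranked 12424 in dry seed, 714 at 8 h and 16 at 16 h, and rose by 3.32 log2 between 8 h and 16 h by the 75th percentile (limma adjusted p = 0.000857). The 16 h list thus drew mostly on probes that already ranked among the 1000 brightest of dry seed.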

How the data were processed

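The files deposited for each array hold spot brightness as linear intensity. Their headers name Agilent Feature Extraction 10.7.3.1 as the extraction software. Per the file headers, the processed signal had its background subtracted and a within-array trend removed before the authors deposited it, and arrays were not scaled to each other. The series' value table, deposited by the authors as log2, matched log2 processed signal centred on the array's 75th percentile, apart from an offset of -0.00265 to -0.00084 log2. Medians of its columns ran from -3.10 to -2.52 log2. Of its 42808 entries, 42748 are the soybean probes used here. The table was an alternative source of values.

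The 1417 control spots of each array were not counted among the soybean probes. The E1A spots served only for the spike-in scale. Outlier spots, 0 to 4 per array, were left out of the fits but kept for ranks and signal sums. No spot was saturated, and 19559 to 31193 probes per array were well above background. The number of arrays limits the precision.

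Groups and replicate numbers came from sample titles. All 8 arrays entered a single limma 3.58.1 model with stage means (R 4.3.3: lmFit, contrasts.fit and 2-sided eBayes tests with 5 residual degrees of freedom), once centred on the 75th percentile and once on the mean of 7 E1A spike-in probes. The same fit was also run on simulated data with known changes and independent noise for each probe. Single values per array used exact permutation tests (scipy 1.17.1, Python 3.11.15). Spots of 1 probe were averaged.

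The members, lists and tests were chosen with earlier results of these data known. Named probes are the 10 brightest in dry seed, the 10 largest falls and 5 smallest differences between 16 h and 8 h, the 5 lowest ranks at 16 h, the 5 on either side of the limit and the 10 brightest newcomers at 16 h, as summarised in the text. A rule for the largest rises named none, since no member was called higher by the 75th percentile. None of the 42748 probes matched the 59048 genes of the reference table by symbol, locus or accession, so gene and tissue lists were not run.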

Additional observations from a re-analysis of the deposited data

How the results depend on the processing

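The 75th percentile fit was repeated with a single setting changed at a time. Some settings replaced the 75th percentile itself. The percentage of members called lower at 16 h than at 8 h was 57 (normexp background correction), 50 (quantile normalization) and 46 (spike-in centring). The percentage called higher was 5 under quantile normalization, 1 under spike-in centring and 1 for the 200 brightest. The median change was -1.34 log2 (normexp), -0.71 (quantile), -2.34 (median centring), -1.66 (75th percentile over probes detected on all arrays) and -0.58 (spike-in centring). On the spike-in scale the percentage lower was 26 on slide 1 and 16 on slide 2. The percentage higher there was 2 on slide 1, 0 on slide 2, 0 for the 50 brightest, 8.5 for the 200 brightest and 2 for members chosen on dry-seed replicate 1. Alternatives on the spike-in scale were chosen after seeing the data. The causes were not tested.

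Without 1 array at a time, ranges were 97 to 100% lower, 0% higher and a median of -2.11 to -1.77 log2 by the 75th percentile, and 35 to 52% lower, 0 to 5% higher and a median of -0.77 to -0.44 log2 on the spike-in scale. The share difference ranged from -18.02 to -16.23 points, the sum relative to the spike-ins from -0.48 to -0.28 log2, and members among the 100 brightest from 90 to 93% at 8 h and 57 to 60% at 16 h. The percentages of all tested probes called in these fits, or with the replicate number as a block, were not tallied.

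Of all 100 members, 26 differed by more than 0 log2 under quantile normalization and 25 under spike-in centring, which shifts every member by 1.42 log2. Among the probes chosen for naming, those that turned were, under quantile normalization, CA851127.1_388 (0.04 log2), CO036232.1_335 (0.03), BE800373.1_348 (0.02), CF805841.1_501 (0.14), GMFL01-37-F18-R_504 (0.06), BE661742.1_458 (0.29), GMFL01-18-H16-R_538 (0.55), GMFL01-45-N21-R_159 (0.44), CX701576.1_898 (0.71), CX710486.1_734 (0.27) and BI970719.1_663 (0.25). Under spike-in centring they were CA851127.1_388 (0.15), CO036232.1_335 (0.10), BE800373.1_348 (0.06), CF805841.1_501 (0.08), GMFL01-18-H16-R_538 (0.65), GMFL01-45-N21-R_159 (0.61), CX701576.1_898 (0.50), CX710486.1_734 (0.44), BI970719.1_663 (0.44), BM107992.1_140 (0.11) and the non-members GMFL01-48-A13-R_373 (0.13) and GMFL01-19-C13-R_375 (0.10). Median centring turned the non-members GMFL01-42-O02-R_143 (-0.07), AI966082.1_109 (-0.10) and CD401778.1_632 (-0.07), and slide 1 alone turned BG840062.1_699 (-0.01).

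Same-numbered portions of 8 h and 16 h had correlations of deviations of 0.101, 0.093 and -0.046. Replicates 1 and 2 of 16 h correlated best with the same-numbered portion of 8 h, and replicate 3 of 16 h with replicate 1 of 8 h. Correlations this weak do not settle whether the numbers pair the arrays. With the replicate number as a block, 100% of members were lower, 0% higher and the median was -2.0 log2, with 46%, 1% and -0.58 log2 on the spike-in scale, where 2 calls were lost and 2 gained, GMFL01-21-F12-R_492 among those gained (-0.58 log2, limma adjusted p = 0.0467). The sum relative to the spike-ins was not run with normexp. In place of mean signal minus local background, the scanner's background-subtracted signal before detrending was used, with a share difference of -16.97 points.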
